A study of Mus musculus with 32 samples.

Results

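The TRAP fraction of cortex from group-housed mice (Gh) was set against input, the RNA of the whole cortex, to ask which transcripts are held by the ribosomes of S100a10 cells more or less than by the tissue at large. The comparison took 8 of the 32 libraries of the series, 4 of TRAP mRNA and 4 of input RNA, chosen by the fraction, the housing and the treatment in their labels. All mice of the series carried the transgene Tg(S100a10-EGFP/Rpl10a)ES691Htz, a single bacterial artificial chromosome line in which the regulatory elements of S100a10 drive ribosomal protein L10a fused to EGFP. Ribosomes with this tag were pulled down with antibodies to EGFP, and each library was made from the cortices of 3 mice. Gh and Sh mice received vehicle, and the labels give their behavior as normal. The other 24 libraries hold both fractions of single-housed mice (Sh), of single-housed mice with fluoxetine at 0.167 g/L in their water for 21 days (Sh + Flx) and of mice so treated that are labelled anxious (Sh + Flx anxious), with 4 libraries of each fraction per group and 3 mice per library. The tag is made wherever the S100a10 elements are active, so that the design does not limit it to a layer or to neurons, and input RNA comes from the same transgenic tissue. The labels call the cells layer 5a S100a10 neurons.

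Ribosome pull-down of this kind recovers mRNAs together with the ribosomes that translate them, so that a transcript is enriched when the tagged cells make more of it than their neighbors, and nuclear RNA is left behind. S100a10 encodes p11, a small protein of the S100 family that has lost the ability to bind calcium, forms a complex with annexin A2 and brings serotonin receptors and ion channels to the cell surface. In the cortex p11 is known from pyramidal neurons of the upper part of layer 5, and outside neurons it is also made by blood vessels and by the membranes that cover the brain.

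Counts in genes ranged from 9776244 to 40009904 per Gh TRAP library and from 25886081 to 34515281 per Gh input library, and reads outside annotated features made up 34.652% to 39.837% and 45.142% to 51.617% of the totals. Gh TRAP 2 and 3 were nearly identical (mean chi-square per gene 1.132, against 15.097 to 33.522 for the other pairs of Gh TRAP libraries). By chi-square tests, 11 of 14157 genes compared differed between them at an adjusted p under 0.05, against 6842 to 9533 genes in the other pairs. The counts of TRAP 2 and 3 were summed and taken as 1 sample, leaving 3 TRAP and 4 input samples. Values per library are given below in the order TRAP 1, TRAP 2 and 3 summed and TRAP 4, then input 1 to 4, in TMM-scaled CPM, the read count of a gene relative to the total of its library after a scaling that takes most genes as equal between libraries. Nothing in the labels says that TRAP and input libraries of equal number came from the same mice. The p-values set the difference between these libraries against a spread estimated over both fractions of all groups, not over the Gh libraries alone.

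Of 17015 genes tested with edgeR's quasi-likelihood test and Benjamini-Hochberg adjustment, 7177 (42.2%) differed between Gh TRAP mRNA and Gh input, as 3450 (20.3%) were higher in Gh TRAP mRNA and 3727 (21.9%) were lower, at an adjusted p under 0.05. The directions were unlike in size, as 2142 genes (12.6%) were called and at least 2-fold higher, and 1206 (7.09%) called and at least 2-fold lower. The median log2 fold change (log2FC) was 1.36 over the genes called higher and -0.78 over those called lower, and -0.064 over all genes tested. With library size alone in place of TMM the median of all genes moved by 0.238 and the calls became 4917 higher and 2257 lower, so that 68.5% of the calls were on the higher side in place of 48.1%. Differences that are small beside this shift depend on the scaling. TRAP and input libraries did not overlap for 3841 genes on the higher side (22.6%) and 4619 on the lower side (27.1%). All adjusted p-values below are from this fit.

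**Figure D1:**
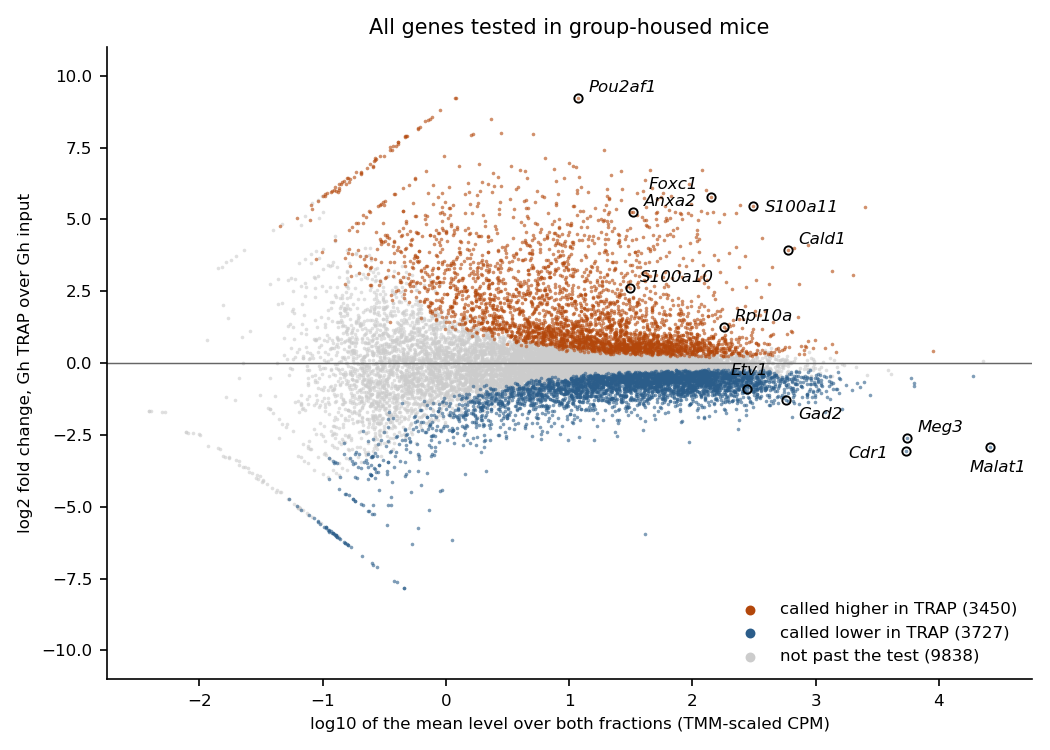
Each point is 1 of the 17015 genes tested, with the mean level over both fractions (log10 of TMM-scaled CPM) across and the log2 fold change of Gh TRAP over Gh input upward. The 3450 genes called higher reach further from 0 than the 3727 called lower, S100a10 stands at 2.60, and the nuclear RNAs Malat1 and Meg3 are the abundant genes at the lower right. The straight streaks at the left are mostly genes with no count in one of the fractions.

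S100a10 itself was higher in TRAP mRNA in every library. It stood at 52.7, 53.6 and 53.8 CPM in TRAP mRNA, against 8.45, 11, 8.86 and 6.90 CPM in input. The TRAP values lie close together and far above the highest input value. This is a log2FC of 2.60 (SE 0.31, adjusted p = 4.33e-08), from 5632 counts in TRAP and 994 in input. S100a10 lies on chromosome 3, 93555117 to 93564645 of GRCm38. By size of change it was not among the leading genes, since 964 genes (5.67% of those tested) were called with a larger log2 fold change. Rpl10a, the ribosomal protein to which the tag is fused, stood at 259.6, 256 and 249 CPM in TRAP mRNA and at 109, 109, 117 and 94.2 CPM in input (log2FC 1.25, SE 0.26, adjusted p = 0.000198). Reads of the transgene's L10a part can be counted under Rpl10a, and how many were is not known from these counts.

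**Figure D2:**
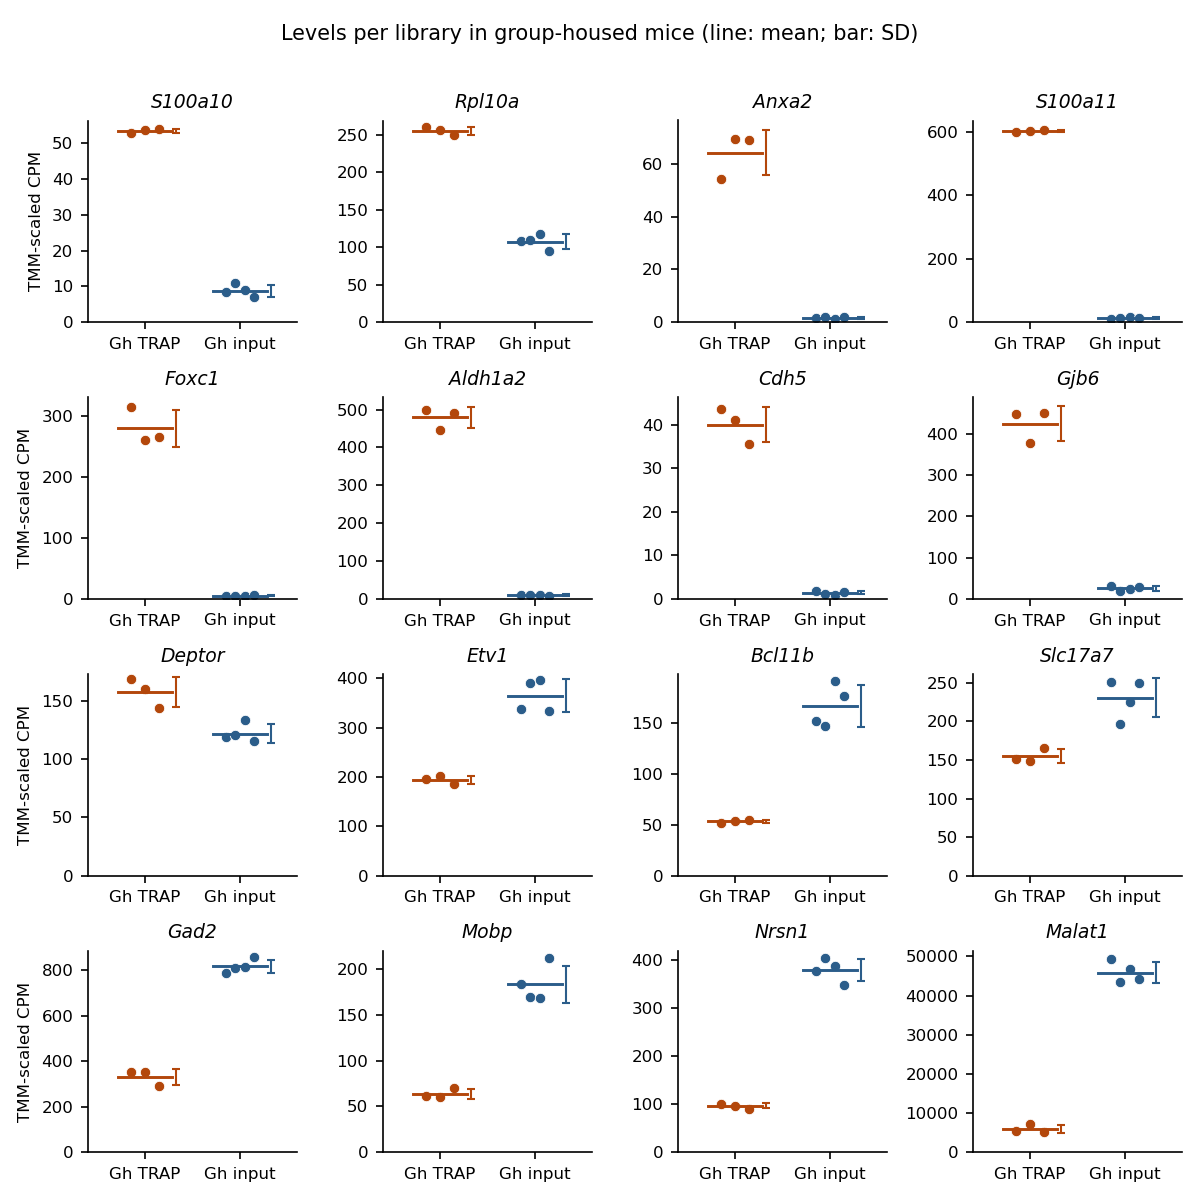
TMM-scaled CPM of 16 genes in each library of Gh mice, with the 3 TRAP samples to the left of the 4 input samples, the mean as a line and the SD as a bar. S100a10, its partner Anxa2, the meningeal genes Foxc1 and Aldh1a2 and endothelial Cdh5 are higher in TRAP, whereas Etv1, Bcl11b, Slc17a7, Gad2, Mobp, Nrsn1 and Malat1 are lower, and in none of the 16 do the fractions overlap.

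S100 proteins and annexins, the families of p11 and of its partner, were mostly higher in TRAP mRNA, where 20.3% of all genes were. Of 11 S100 genes tested (of 16 in the files), 7 were higher in TRAP mRNA, none was lower and 4 did not pass the test, with a median log2 fold change of 2.30 (1.41 without TRAP 4). S100a11, a calcium-binding relative of S100a10 that lies near it on chromosome 3, stood at 600.1, 602 and 607 CPM in TRAP mRNA against 10.8, 14.4, 16.9 and 12.1 CPM in input (log2FC 5.48, SE 0.29, adjusted p = 1.34e-15). S100a6, calcyclin, averaged 28.6 ± 2.60 CPM against 5.81 ± 0.94 (log2FC 2.30; SD, n = 3 and 4), and S100a1 had a log2FC of 1.51. Annexins bind membrane phospholipids when calcium rises. Of 11 tested (of 12 in the files), 9 were higher and none was lower, with a median of 2.79. Anxa2, the partner with which p11 forms its heterotetramer, stood at 54.4, 69.6 and 69 CPM in TRAP mRNA and at 1.6, 2.05, 1.18 and 1.89 CPM in input, a log2FC of 5.25 (SE 0.38, adjusted p = 7.63e-13). Anxa1, which is known for limiting inflammation, had the largest difference among the annexins at 104, 89.2 and 73.8 CPM against 0.532, 1.01, 1.05 and 0.789 CPM (log2FC 6.72). Anxa3 and Anxa4 had log2FCs of 4.64 and 3.96.

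The promoter windows of the partner Anxa2, of S100a11, of Foxc1, the gene with the smallest p among those higher in TRAP, and of Nrsn1, that with the smallest p among those lower, are shown because these genes mark both ends of the comparison. The sequences are RefSeq's for GRCm38.p6, run 5′ to 3′ along the strand of the gene and span its start. Capitals mark matches on either strand to TATAAA (the TATA box), GGGCGG (a GC box) or TGANTCA (the core site of AP-1 factors), which do not overlap here.
Anxa2, plus strand, chr9:69453433-69453732: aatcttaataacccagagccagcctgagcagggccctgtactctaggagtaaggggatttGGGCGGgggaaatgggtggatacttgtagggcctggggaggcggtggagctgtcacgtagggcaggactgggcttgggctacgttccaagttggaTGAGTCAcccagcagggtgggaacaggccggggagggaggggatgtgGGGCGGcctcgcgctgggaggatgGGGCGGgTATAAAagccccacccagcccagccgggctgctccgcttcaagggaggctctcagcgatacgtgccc
S100a11, plus strand, chr3:93520246-93520545: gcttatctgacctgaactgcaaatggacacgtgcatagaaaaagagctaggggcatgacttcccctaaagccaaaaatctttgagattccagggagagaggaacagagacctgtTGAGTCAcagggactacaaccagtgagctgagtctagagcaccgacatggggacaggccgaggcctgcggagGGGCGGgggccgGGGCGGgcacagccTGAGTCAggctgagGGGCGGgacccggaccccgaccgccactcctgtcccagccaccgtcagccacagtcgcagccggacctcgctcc
Foxc1, plus strand, chr13:31806396-31806695: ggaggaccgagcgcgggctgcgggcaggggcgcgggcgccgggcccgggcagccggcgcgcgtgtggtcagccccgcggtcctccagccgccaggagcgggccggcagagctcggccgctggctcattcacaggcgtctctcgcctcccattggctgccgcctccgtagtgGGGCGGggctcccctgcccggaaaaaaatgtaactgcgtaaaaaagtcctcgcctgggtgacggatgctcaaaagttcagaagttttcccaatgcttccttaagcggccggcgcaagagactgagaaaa
Nrsn1, minus strand, chr13:25269947-25270246: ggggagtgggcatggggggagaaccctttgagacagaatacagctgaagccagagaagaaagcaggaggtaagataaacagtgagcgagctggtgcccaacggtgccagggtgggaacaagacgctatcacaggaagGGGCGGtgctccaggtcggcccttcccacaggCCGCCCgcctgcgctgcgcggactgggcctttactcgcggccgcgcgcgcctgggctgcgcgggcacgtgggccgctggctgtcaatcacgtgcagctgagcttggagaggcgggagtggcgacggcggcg
Both TGANTCA and GGGCGG stand in the windows of Anxa2 and S100a11, with a TATAAA in that of Anxa2 alone. Promoter windows were at hand for 12495 of the 17015 genes tested (15778 windows). TGANTCA was in 8.1% of the windows of genes at least 2-fold higher in TRAP and in 6.3% of those at least 2-fold lower, against 5.6% of all. GGGCGG was in 55.2% and 45.3%, against 57.0% of all, and TATAAA in 195 of 1949 and 109 of 1064 windows, against 1288 of all 15778. These shares describe letters in a window of 300 bases and were not tested.

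Other proteins known to bind p11 went both ways. Of 11 listed partners, 3 (27.3%) were higher and 4 (36.4%) lower, where 20.3% and 21.9% of all genes were. Their median log2 fold change of -0.04 turned to 0.02 with RLE factors, another scaling of the same aim, and 0.19 with library size alone. The 3 that were higher are Anxa2, the giant scaffold Ahnak and Plat, tissue plasminogen activator. Ahnak stood at 501, 506 and 496 CPM in TRAP mRNA and 37.2, 38.7, 37.9 and 36.2 CPM in input (log2FC 3.74, adjusted p = 1.12e-14), and Plat averaged 22.1 ± 5.12 against 5.38 ± 1.29 CPM (log2FC 2.04). The members that were lower are Grm5, Kcnk3 (the potassium channel TASK-1), Htr1d and Htr4. Grm5, the metabotropic glutamate receptor mGluR5, was lower at 94.2 ± 9.08 CPM against 217 ± 15.4 (log2FC -1.21), and Kcnk3, named after its values were seen, had -1.27. No serotonin receptor was higher in TRAP mRNA (median -0.68). Of 13 tested, 4 (30.8%) were lower, against 21.9% of all genes, and 9 did not pass. Htr2a, the 5-HT2A receptor, stood at 19.7, 13.4 and 21.8 CPM in TRAP mRNA and 25.2, 21.9, 19.2 and 20.2 CPM in input. These overlap, and its log2 fold change of -0.25 did not pass the test (adjusted p = 0.319, 95% interval -0.64 to 0.15). Htr2c, Htr1a, Htr1d and Htr4, the receptors that were lower, had log2FCs of -0.98, -0.82, -1.90 and -1.31, the last of them from a mean of 1.24 CPM in TRAP mRNA against 3.12 CPM in input. Htr4 no longer passed without TRAP 4 (-1.05, adjusted p = 0.0961) or without input 1 (-1.03, adjusted p = 0.0714).

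Markers of layer 5, the layer named in the labels, went both ways. The upper part of the layer holds mainly intratelencephalic neurons. Among the 8 intratelencephalic markers, 2 were higher and 2 lower, with a median of 0.15, but -0.17 without TRAP 1. With TRAP 2 and 3 as separate libraries the median was -0.27, though only 7 of the 8 were tested there. The summed level of all 8 was 412 to 439.7 CPM in TRAP and 518 to 594 CPM in input. Deptor, an inhibitor of mTOR signaling in upper layer 5, stood at 169, 160.2 and 144 CPM in TRAP mRNA and 119, 121, 133 and 115 CPM in input, a log2FC of 0.37 (adjusted p = 0.00816), with all TRAP libraries above all input libraries. Sulf2, an endosulfatase of heparan sulfate, had 0.44 (adjusted p = 0.00402). Etv1, a transcription factor that marks the same layer, was lower at 195, 202 and 186 CPM against 338, 389.8, 397 and 334 (log2FC -0.91, adjusted p = 5.91e-06), and Tcerg1l was lower at -1.49. Pyramidal tract neurons lie mainly deeper in the layer, and their markers were lower in 5 of 9, led by Bcl11b (Ctip2), the transcription factor that specifies these neurons, at 51.6, 53.5 and 54.8 CPM against 152, 147, 191 and 176 (log2FC -1.64). The 3 that were higher, Slco2a1 (3.32), Npr3 (1.47) and Bcl6 (0.31), are also known outside neurons, the first as a prostaglandin carrier of blood vessels and the second as the clearance receptor for natriuretic peptides. Bcl6 no longer passed without input 2 (0.25, adjusted p = 0.0566). Tshz2, a near-projecting marker, had a log2FC of -1.09. Over all 21 markers of the layer 5 neuron types, 5 were higher and 9 lower, where 20.3% and 21.9% of all genes were. Since the intratelencephalic markers were not higher as a list, the fraction is called TRAP mRNA here and not layer 5a neurons.

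Markers of other cortical neurons were more often called lower than higher in TRAP mRNA, except those of layer 4. Of all genes, 20.3% were higher and 21.9% lower. Of 8 markers of layer 2/3, 4 were lower and none higher (median -0.77), among them Calb1, calbindin (-1.01), and the transcription factor Cux2 (-0.90). Of 5 layer 4 markers, 3 were higher and 1 was lower, but without TRAP 1 only 1 was higher. Rorb, the usual marker of this layer, was the lower one at -0.51, which no longer passed with library size alone, and the sodium channel subunit Scnn1a had 0.89 with libraries of the fractions overlapping, and did not pass without TRAP 4 (0.78, adjusted p = 0.0662). Layer 6 and subplate markers also went both ways: 3 were higher and 5 lower of 11. Foxp2, a transcription factor of corticothalamic neurons, stood at 141, 147 and 138 CPM in TRAP mRNA and 77.3, 69.7, 77.8 and 74.1 CPM in input (log2FC 0.93, adjusted p = 2.04e-05). Ctgf, a secreted matrix protein of the subplate and of connective tissue, was higher at 2.37, and Sulf1 at 1.07, whereas Tbr1 (-0.85) and Cplx3 (-2.10) were lower. Markers of excitatory cortical neurons in general were lower in 6 of 9 with none higher. Slc17a7, the vesicular glutamate transporter VGLUT1, stood at 152, 149 and 165 CPM in TRAP mRNA and 251, 197, 225 and 249.8 CPM in input (log2FC -0.57, and -0.33 with an adjusted p of 0.0577 with library size alone), and Neurod2 had -0.63.

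Interneuron markers were lower or did not pass, where 21.9% of all genes were lower. Of 18 genes, 13 were lower, 12 of them at least 2-fold, and none was higher (median log2 fold change -1.25). Gad2, which makes GABA, stood at 354, 351 and 291 CPM in TRAP mRNA and 788, 808, 814 and 856 CPM in input (log2FC -1.30, SE 0.18, adjusted p = 3.62e-07). Lhx6, a transcription factor of interneurons from the medial ganglionic eminence, had -1.23, and the peptides Sst, Npy and Vip had -1.26, -1.73 and -1.42. Every one of these was below input in all TRAP libraries. Markers of striatal spiny neurons were present in input at a summed 744 to 842 CPM and stood at 381 to 412 CPM in TRAP, with 9 of 13 lower. Ppp1r1b (DARPP-32) had a log2FC of -1.70 and the phosphodiesterase Pde10a of -1.16. Cortical neurons make some of these genes as well.

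Oligodendrocyte markers were lower in 11 of 14, 10 of them at least 2-fold (median -1.34), where 21.9% of all genes were lower and 20.3% higher. Mobp, a myelin protein, stood at 61, 60.0 and 70.3 CPM in TRAP mRNA and 183, 169, 168 and 212 CPM in input (log2FC -1.52), and Ermn, a cytoskeletal protein of myelin, had -1.73. Aspa, which breaks down N-acetylaspartate, was the exception at 49.4 ± 5.81 CPM against 34.5 ± 4.50 (log2FC 0.52, adjusted p = 0.00682, and 0.42 with an adjusted p of 0.056 without TRAP 2 and 3). Precursor markers were split 3 to 3, with Olig1 at -1.62 and Pdgfra, a receptor also found on fibroblasts, at 1.15. Astrocyte markers were lower in 8 of 16 and higher in 2. The water channel Aqp4 and the glycolytic enzyme Aldoc had -1.10 and -0.92. The 2 that were higher are connexins, the subunits of gap junctions: Gjb6 (connexin 30) stood at 448, 377 and 449.9 CPM in TRAP mRNA and 32, 19, 23.9 and 29.3 CPM in input (log2FC 4.03), and Gja1 (connexin 43) had 1.74. Another connexin, Gjb2, which is found in the meninges, was among the genes of smallest p at 439 ± 18.5 CPM against 11.8 ± 1.34 (log2FC 5.21). Both fractions come from the same kind of tissue, so these values compare shares of mRNA and do not count the cells of a type.

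**Figure D3:**
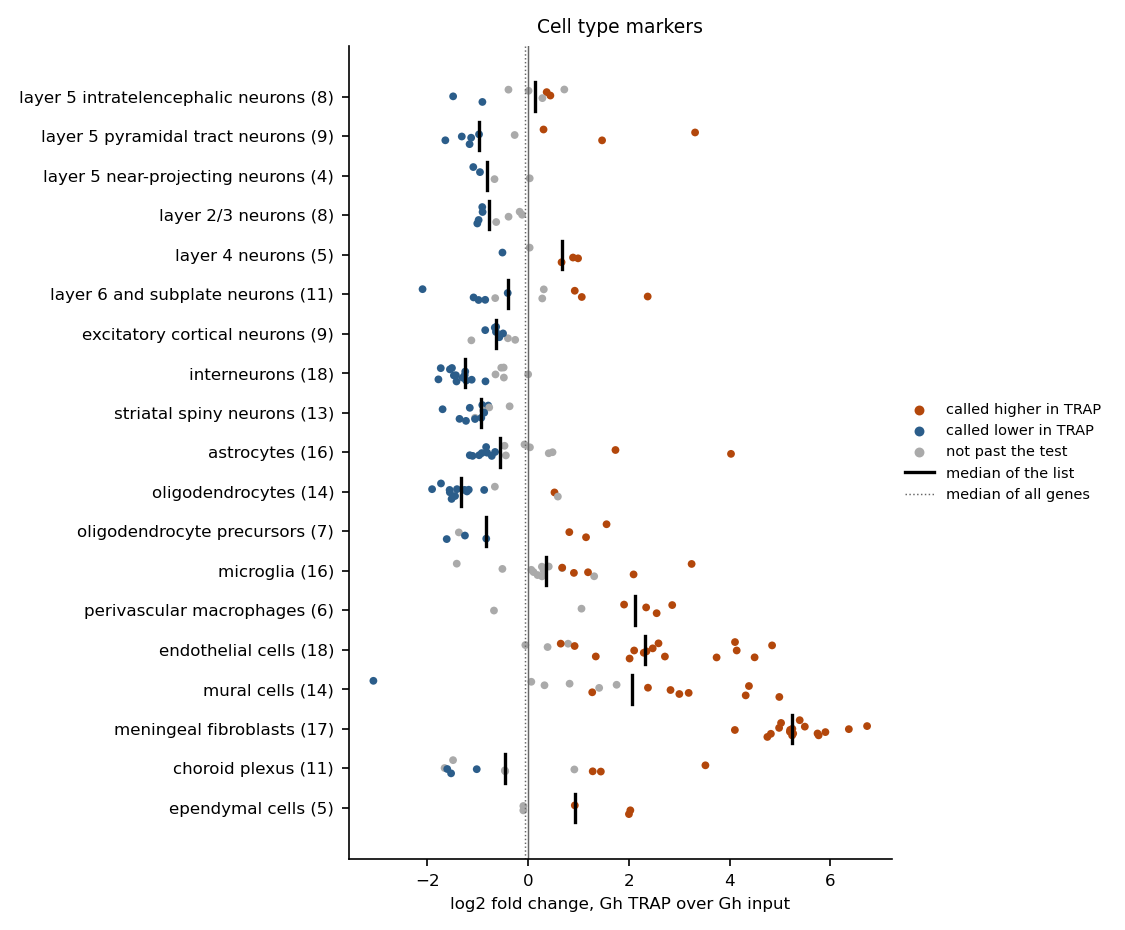
Log2 fold change of Gh TRAP over Gh input for each tested marker, 1 row per cell type with the number of genes in brackets, colored by the call, with the median of the list as a black line. All 17 meningeal fibroblast markers lie between 4.11 and 6.73, while medians of interneurons (-1.25) and oligodendrocytes (-1.34) lie below 0.

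Genes of the brain's coverings had the highest median of the cell type lists. All 17 markers of meningeal fibroblasts were higher in TRAP mRNA, with log2FCs of 4.11 to 6.73 and a median of 5.25, each larger than that of S100a10. These markers, like all lists here, were chosen with earlier results of these data known, so that their agreement is no test. Their summed level was 4227 to 4564 CPM in TRAP and 139 to 172 CPM in input, 27.6 times as much by the means, and none was at 0 in either fraction. Foxc1, a forkhead factor needed for the meninges to form, stood at 316, 260.2 and 266 CPM in TRAP mRNA and 4.76, 4.77, 5.06 and 5.99 CPM in input (log2FC 5.77, SE 0.24, adjusted p = 1.14e-17). Aldh1a2, which makes the retinoic acid of the meninges, stood at 499, 447 and 491 CPM against 11.2, 11.6, 11.6 and 8.04 (log2FC 5.49). The sulfate transporter Slc13a4 and the matrix proteoglycan Ogn had 5.20 and 5.26. Collagens were higher in 24 of 44 and lower in 3, against 20.3% and 21.9% of all genes, with a median of 1.63. Col1a1 and Col1a2, the chains of type I collagen, had 5.75 and 5.25, and the lower members were Col19a1, Col6a4 and Col9a1 at means of 15.2, 0.187 and 0.0568 CPM in TRAP mRNA. Each of the 3 lost its call when single libraries were left out, Col19a1 without TRAP 1 or 4 (adjusted p = 0.0868 and 0.103), Col6a4 without TRAP 1, input 1 or input 3 (at most 0.0994) and Col9a1 without TRAP 1, TRAP 4 or input 2 (at most 0.109). The part of meningeal RNA in the TRAP differences of other genes was not tested.

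Vascular markers were mostly higher too, where 20.3% of all genes were. Of 18 endothelial genes, 15 were higher and none lower (median 2.32; summed 283 to 314 CPM in TRAP and 43.2 to 50.7 CPM in input). Cdh5, VE-cadherin of endothelial junctions, stood at 43.6, 41 and 35.5 CPM in TRAP mRNA and 1.75, 1.14, 1.01 and 1.62 CPM in input (log2FC 4.84, adjusted p = 8.21e-13). Flt1, a receptor for vascular endothelial growth factor, had 4.14, the drug transporter Abcb1a 4.50 and Itm2a 3.74. Mural markers were higher in 8 of 14 (median 2.07; summed 278 to 328 CPM against 36.6 to 42.7 CPM), led by Anpep (4.99), Vtn (4.39) and Myl9 (4.32). The lone mural marker that was lower, Higd1b, averaged 0.0614 CPM in TRAP mRNA and 0.662 CPM in input. Higd1b did not pass without TRAP 1 or TRAP 4 (adjusted p = 0.0552 and 0.0697). No vascular or glial marker was at 0 in all libraries of a fraction, and the part of vascular RNA in other differences was not tested.

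Immune cells of the brain gave fewer calls. Microglial markers were higher in 5 of 16 and lower in none (median 0.36; summed 143 to 178 CPM against 81.6 to 107 CPM), and 11 did not pass. The share higher was 31.2%, against 20.3% of all genes, and without TRAP 1 the number higher was 3. Olfml3, a secreted glycoprotein, stood at 35.6, 25.1 and 29.9 CPM in TRAP mRNA and 2.82, 2.53, 3.46 and 3.90 CPM in input (log2FC 3.25), and Tmem119 had 2.09. Perivascular macrophages were represented by 6 genes, of which 4 (66.7%) were higher, with Lyve1 at 2.55 and the mannose receptor Mrc1 at 2.34. Without TRAP 1 or TRAP 4 the number of these macrophage genes called higher was 3. Genes of ciliated ependymal cells were higher in 3 of 5 (60.0%), with the dynein light chain Dynlrb2 at 2.03. That number was 2 without TRAP 1, TRAP 4, input 2, input 3 or input 4. Choroid plexus markers were divided 3 higher and 3 lower of 11 (27.3% each, against 20.3% and 21.9% of all genes). The number lower was 1 when TRAP 1, TRAP 4 or input 2 was left out. Kcnj13, a potassium channel, was higher at 3.52 and Kl, which encodes klotho, at 1.28, whereas the prolactin receptor Prlr was lower at -1.53. Blood genes summed to 0.456 to 1.35 CPM in TRAP and 2.32 to 6.32 CPM in input, and the pituitary genes listed to 0.187 to 1.16 CPM against 1.4 to 2.76 CPM.

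The genes with the smallest p on the higher side included Foxc1, Aldh1a2, Gjb2 and S100a11. The others were Car13, a carbonic anhydrase (203, 159.8 and 189 CPM in TRAP mRNA against 2.13, 3.34, 2.07 and 2.13 CPM in input; log2FC 6.24), the cell adhesion protein Mpzl2 (5.76), the actin regulator Cald1 (3.94), ceruloplasmin Cp (4.45), the aldehyde oxidase Aox3 (4.60), Arhgap29 (4.34), the endocytic adaptor Dab2 (3.59) and Tbx18, a T-box factor of mural cells and fibroblasts (4.68). The largest folds among genes of at least 5 CPM in TRAP mRNA came from genes nearly silent in input. Pou2af1, a coactivator best known from B cells, stood at 13.7, 25.4 and 31.2 CPM in TRAP mRNA and 0, 0.0325, 0.0844 and 0.0394 CPM in input, from 2795 counts and 4 counts (log2FC 9.21). Serpinb6b, a protease inhibitor, had 7.40, Fgfbp1, which frees growth factors from the matrix, 6.85, and Twist1, a mesenchymal transcription factor, 6.81. Ces2g, Cyp4a12b and Foxd2os had 7.98, 7.13 and 6.86, and Agtr1b, an angiotensin receptor, had 524 counts in TRAP and 2 in input. Folds against so few input counts depend on the counts that the fit adds to each library. Agtr1b, Ces2g and Cyp4a12b have closely related genes beside them and Foxd2os lies on the other strand next to Foxd2, so that their counts are uncertain. Of the genes called, 64 had no count in any Gh input library and 44 none in any Gh TRAP library.

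Changes on the lower side were smaller. The gene with the smallest p after passing over predicted gene models was Nrsn1. Nrsn1, neurensin, a vesicle protein of neurites, stood at 101, 97.2 and 90.9 CPM in TRAP mRNA and 377, 403, 387 and 348 CPM in input (log2FC -1.97, SE 0.11, adjusted p = 6.49e-15). The G protein subunit Gng2 had -1.4, the nucleic acid binding protein Purb -1.58, the small GTPase Diras2 -1.39, Lix1 -1.74, Chic1 -1.67, Trim44 -1.09, Fam84a -1.65, the glycolipid enzyme B4galt6 -1.10, carbonic anhydrase Car2 -1.60 and Rragd, which signals amino acid levels to mTOR, -1.14. By size none of these reached the folds of the 12 genes with the smallest p on the higher side. Cdr1, Malat1 and Meg3 are described further below. The other largest folds on the lower side were sought among genes of at least 5 CPM in input that are not predicted gene models and whose fractions do not overlap. They were in Pnpla3, a lipase of lipid droplets (-2.66), Ctcfl, a relative of the insulator protein CTCF (-2.54), the noncoding Srrm4os (-2.46), Nlrp5-ps (-2.54) and AI450353 (-2.58). Ctcfl stood at 6.37, 8.76 and 6.38 CPM in TRAP mRNA and 47, 35.2, 44.6 and 41.3 CPM in input.

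Receptors and channels of neurons were lower or did not pass, with 1 exception. Over all genes tested, 21.9% were lower and 20.3% higher. GABA receptor subunits were lower in 15 of 17 and higher in none (median -1.07). Gabra3 averaged 37.8 ± 1.98 CPM in TRAP mRNA and 119.8 ± 3.62 CPM in input (SD, n = 3 and 4; log2FC -1.66, adjusted p = 5.10e-13), and Gabra5 had -1.12. Glutamate receptor genes were lower in 19 of 25 and higher in none (median -0.71), among them the AMPA receptor subunit Gria1 (-1.37) and the kainate receptor subunit Grik2 (-1.39). With library size alone the number of glutamate receptor genes called lower was 10. Potassium and HCN channels were lower in 25 of 41 (Kcna1 -1.02), calcium channels in 12 of 24 (Cacng3 -1.02, Cacnb4 -1.07) and sodium channels in 7 of 12 (Scn3b -1.18). Only Scn7a, an atypical sodium channel known as a salt sensor, was higher among these channels, at 19.7 ± 2.55 CPM against 8.69 ± 1.79 (log2FC 1.18), though RLE factors and library size alone add 1 and 3 potassium channels on the higher side and leaving out TRAP 1 adds 2.

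The machinery of synapses followed, and its counts stand beside 21.9% lower and 20.3% higher over all genes. Synaptic vesicle and release proteins were lower in 14 of 20 (median -0.56), and postsynaptic density proteins in 11 of 16 (median -0.56), with none higher. Syn2, synapsin II, had a log2FC of -0.99 and the complexin Cplx2 of -1.03. Map2, the dendritic microtubule protein, stood at 285, 273 and 264 CPM in TRAP mRNA and 969.5, 1048, 1050.2 and 951 CPM in input (log2FC -1.88). The axonal growth protein Gap43 had -1.25 and tau, Mapt, -1.06. Neuronal cytoskeleton genes were lower in 7 of 11, with Thy1 at -0.75 and Ina, the neurofilament internexin, at -0.80. Neuropeptide genes were lower in 8 of 18 and higher in none. With library size alone 9 of the 20 vesicle proteins and 6 of the 16 postsynaptic proteins were called lower, and 1 postsynaptic protein and 1 cytoskeleton gene higher.

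**Figure D4:**
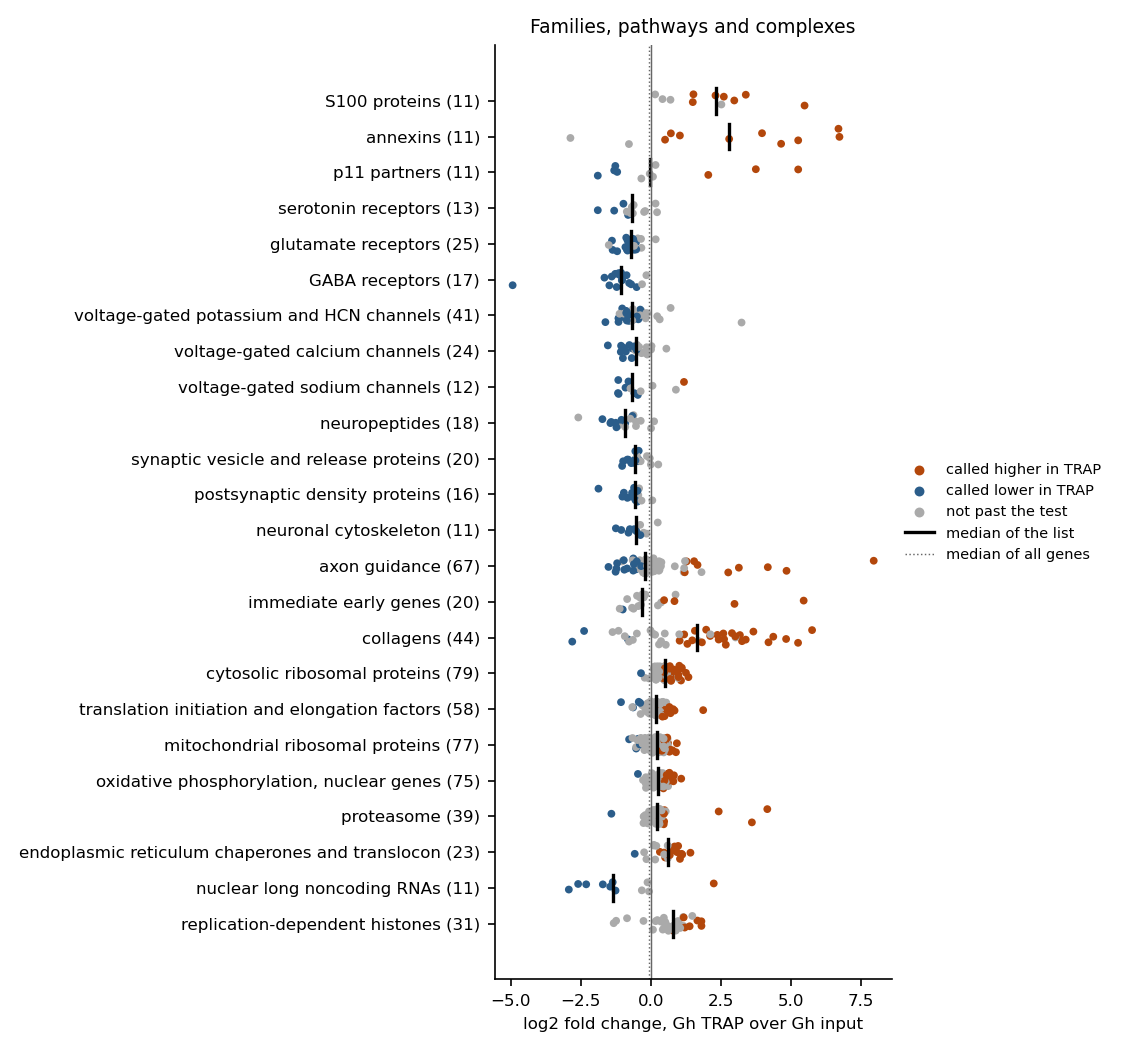
Log2 fold change of Gh TRAP over Gh input for the tested members of each family, pathway or complex, 1 row per list with the number of genes in brackets, colored by the call, with list medians in black. Medians of S100 proteins (2.30), annexins (2.79) and collagens (1.63) lie far to the right, those of neuronal receptors and channels between -1.07 and -0.54, and those of ribosomal and mitochondrial lists just above 0.

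Genes of guidance and of immediate early response were mixed. Axon guidance genes were higher in 9 of 67 and lower in 17, against 20.3% and 21.9% of all genes, and without TRAP 1 each number was 11. The semaphorin Sema3d (3.13), the receptor Robo1 (1.27), Plxnb2 (1.54) and the vascular receptor Ephb4 (4.17) were higher. With library size alone the split turned to 18 higher and 9 lower. Among 20 immediate early genes, 4 were higher and 1 lower. Klf4, a Krüppel-like factor of vessels and fibroblasts, stood at 76.6, 75.7 and 96.3 CPM in TRAP mRNA and 1.75, 2.05, 1.94 and 1.85 CPM in input (log2FC 5.45), Jun and Jund had 0.47 and 0.84, and Egr3 was lower at -1.01.

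Genes for ribosomes and protein folding were more often higher than lower in TRAP mRNA. Cytosolic ribosomal protein genes were higher in 34 of 79 and lower in 1 (median 0.49; summed 9591 to 10090.0 CPM in TRAP and 6398 to 7824 CPM in input). Rpl41 had a log2FC of 1.34 and Rpl27 of 1.01, and the member that was lower is Rps15a (-0.36, and -0.12 with library size alone). Rps15a did not pass without TRAP 1, TRAP 4 or input 2 (adjusted p of at most 0.0878). These genes have many processed copies in the genome, so that single members are uncertain. Nuclear genes of oxidative phosphorylation were higher in 20 of 75, with Ndufv1 lower at -0.47, which lost its call without any 1 of 5 libraries (TRAP 1 and 4 and input 2 to 4; adjusted p of at most 0.171) (median 0.26; Uqcrb 1.08), and mitochondrial ribosomal proteins in 12 of 77 with 4 lower. Without TRAP 4 the mitochondrial ribosome had 6 higher and 6 lower, and without input 1 or input 4 oxidative phosphorylation had 13 higher. Against these stand the 20.3% of all genes called higher. With library size alone the numbers higher became 58 of 79 for the cytosolic ribosome, 40 of 75 for oxidative phosphorylation and 29 of 77 for the mitochondrial ribosome. Endoplasmic reticulum chaperones and translocon subunits were higher in 13 of 23 (median 0.59), including the translocon subunit Sec61b (1.41) and the disulfide isomerase Pdia3 (0.97). Spcs3, of the signal peptidase, was lower at -0.58. Of 39 proteasome genes 11 (28.2%) were higher, but 4 without TRAP 1 and 7 without input 1. The 1 that was lower was Psmb11, the subunit of thymus (-1.41). The largest differences there were in Psmb8 and Psmb9, the subunits of the immunoproteasome, at 3.60 and 4.15. Psmb9 stood at 9.46, 8.92 and 14.5 CPM in TRAP mRNA and 1.06, 0.39, 0.549 and 0.434 CPM in input. Among 58 translation factors 15 (25.9%) were higher and 4 lower, where 20.3% of all genes were higher. Eif2ak2, the kinase PKR that responds to double-stranded RNA, had the smallest p of them at 1.86, and the neuronal factor Eif5a2 was lower at -1.07.

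Long noncoding RNAs that stay in the nucleus were depleted. Of 11 such RNAs, 7 were lower, all at least 2-fold, and 1 was higher (median -1.37). Malat1, which lies in nuclear speckles, stood at 5507, 7254 and 5269 CPM in TRAP mRNA and 49239, 43399, 46676 and 44245 CPM in input (log2FC -2.93, SE 0.42, adjusted p = 8.53e-07). Of TMM-scaled CPM it took 4.59% in input and 0.6% in TRAP, and the scaling makes these differ from shares of raw counts. Meg3, a maternally expressed RNA, averaged 1573 ± 312 CPM against 9540.4 ± 1779 (log2FC -2.60), Miat had -2.31 and Neat1, the scaffold of paraspeckles, -1.27. The exception was Airn, at 3.07 CPM in TRAP mRNA and 0.639 CPM in input, which is antisense to Igf2r and cannot be told apart from it in counts without strand. Cdr1 is not among the 11 RNAs listed. This locus, whose antisense strand gives an abundant circular RNA of neurons, stood at 1121, 1437 and 917 CPM in TRAP mRNA and 10129, 9566, 9608 and 9626 CPM in input (log2FC -3.07). The counts do not say which strand was measured. Of 8 host RNAs of snoRNAs, 1 was higher, Snhg1 (1.14), and 2 were lower, Snhg7 (-1.46) and Snhg12 (-0.88). Over all genes tested, 20.3% were higher and 21.9% lower, and whether these host RNAs depart from that was not tested. Histone genes listed as replication-dependent were higher in 7 of 31 (22.6%, against 20.3% of all genes) and lower in none. Among them Hist1h2bc had 1.80 and Hist2h2be 1.17, and near-identical histone genes can share reads. Over all 1033 lncRNA genes tested the median was -0.65, with 5.9% higher and 24.8% lower, against -0.03 over 15615 protein-coding genes with 21.6% in each direction.

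Longer transcripts were lower more often. When genes were ranked by the length of their transcript in 10 bins, the median log2 fold change was 0.15 in the shortest bin (median length 946 bases) and -0.22 in the longest (median length 8191 bases). The share called lower was 10.1% in the shortest and 35.1% in the longest bin, while the share called higher was 21.4% and 17.2%. Genes called higher had a median transcript length of 3117 bases, those called lower of 4061 bases, and those not called of 3024.5 bases. In bins of GC content the median was -0.22 at the lowest GC and 0.01 at the highest. These are descriptions across genes, which are not independent, and the part of length or GC in the differences of single genes was not tested.

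**Figure D5:**
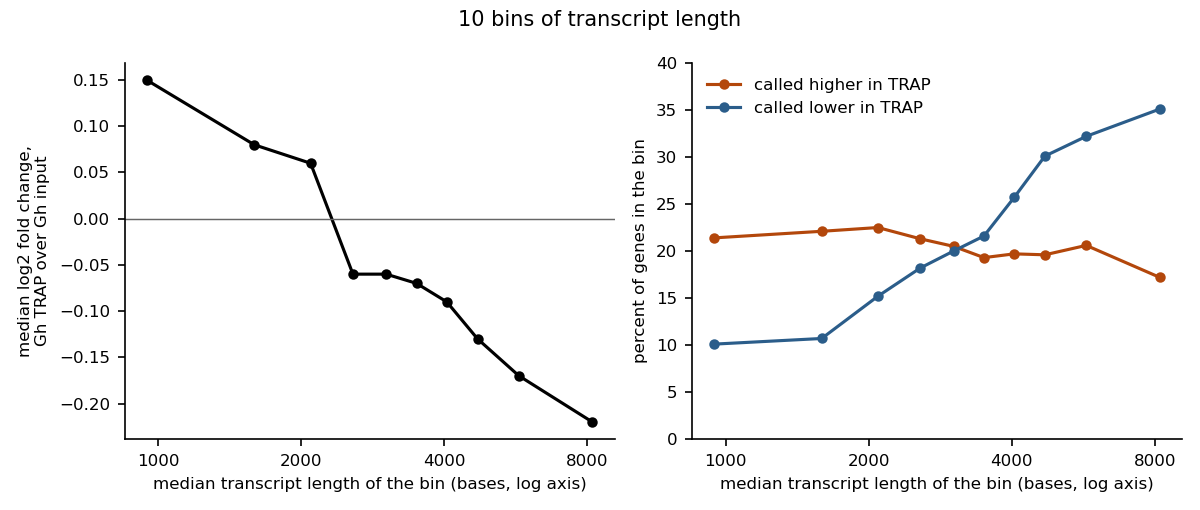
Genes in 10 bins of transcript length (median length of the bin in bases, log axis), with the median log2 fold change of Gh TRAP over Gh input at the left and the percent of genes called at the right. The share called lower is 10.1% in the shortest and 35.1% in the longest bin, while the share called higher is 21.4% and 17.2%.

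The same comparison in the other 3 groups, each with TRAP and input libraries of its own, is set beside that of Gh here. Of the 3450 genes higher in Gh, 75.9% were called higher in Sh, 89.2% in Sh + Flx and 85.9% in Sh + Flx anxious, which is 72.3%, 72.5% and 72.7% of the genes called higher there. Of the 3727 lower in Gh, 60.9%, 84.5% and 81.2% were called lower, which is 70.9%, 68.7% and 66.3% of those called lower there. S100a10 had log2FCs of 2.38, 2.82 and 3.06 in Sh, Sh + Flx and Sh + Flx anxious, and its value in Gh lay -0.15 from their mean (SE 0.35). Anxa2 had 4.70, 5.29 and 5.42 and Foxc1 5.65, 6.02 and 6.08 in the same order. The median of the meningeal list was 5.08, 5.51 and 5.66 in these groups, against 5.25 in Gh, that of endothelial cells 2.38, 2.03 and 1.77 against 2.32, that of interneurons -0.93, -1.01 and -0.85 against -1.25, and that of the layer 5 intratelencephalic markers -0.63, -0.05 and 0.03 against 0.15. In each group all 17 meningeal markers were called higher and no interneuron marker was. Both lists were chosen with earlier results of these data known.

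Tested gene by gene, no gene differed in its TRAP to input ratio between Gh and the mean of the other groups at an adjusted p under 0.05 (edgeR), with 1018 genes at an unadjusted p under 0.05. DESeq2 called 16 genes. Sh TRAP 2 and 3 had the highest shares of reads outside features of all TRAP libraries, 50.334% and 58.641%, and without them edgeR called 150 genes, 66 with a larger and 84 with a smaller ratio in Gh. Aspa was among them, with log2FCs of 0.52 in Gh and of 0.56, 1.56 and 1.57 in Sh, Sh + Flx and Sh + Flx anxious (difference without those libraries -0.80, adjusted p = 0.00471), as was S100a6 (2.30 in Gh, 2.18, 3.52 and 3.95 in the others; difference -1.13, adjusted p = 0.00692). Pou2af1 was also among them (9.21 in Gh, 5.60, 5.56 and 5.67 in the others; difference 3.39, adjusted p = 0.0415). In the fit of all libraries the differences of these 3 genes were -0.70, -0.92 and 3.59 and did not pass the test (adjusted p = 0.288, 0.762 and 0.315).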

How the data were processed

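All mice carried the S100a10 bacTRAP transgene, and each library came from 3 pooled cortices. The authors deposited raw read counts per gene and library. The labels and methods name TopHat2 2.0.11, Cufflinks 2.2.1 and edgeR 3.8.6 with build mm10 (GRCm38), while which program counted the reads was not given in the sources used here. Tables of the authors' FPKM means and of their own comparisons were not used. Rows for reads outside features were left out of library sizes.

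Counts were filtered with filterByExpr, scaled with TMM and fitted with the quasi-likelihood test of edgeR 4.0.16 (R 4.3.3) over both fractions of all groups, with Gh TRAP 2 and 3 summed into 1 column, and adjusted with the Benjamini-Hochberg method. The contrast was Gh TRAP over Gh input. A second contrast set this ratio against the mean ratio of the other groups. A call is an adjusted p under 0.05. Libraries of equal number were not taken as pairs. DESeq2 1.42.0, other scalings, filters, sample choices and leave-one-out fits were alternatives. Transcript lengths came from GENCODE. Names, positions and promoter sequences came from RefSeq's GRCm38.p6 tables, which gave a position for 23902 of 24062 genes.

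The genes named were S100a10, Rpl10a and Htr2a, up to 12 genes per direction with the smallest p and up to 8 with the largest fold at a mean of at least 5 CPM, both among called genes without overlap of the fractions and leaving aside predicted gene models, and up to 4 genes with the smallest p of each list with any of at most 3 members called against the rest. Genes were named up to these limits, not always in full, and some are not reported here. Lists and members were chosen with earlier results of these data known. Leading depth limits are the 9776244 counts of Gh TRAP 1, and precision rests on 3 and 4 samples. Reads lack molecular identifiers, and the library kit does not mark strand.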

Additional observations from a re-analysis of the deposited data

Results flagged for a closer look

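In 11 of 209 sets of 4 Gh input values examined, 1 library stood apart from the other 3 by Dixon's test, where chance gives about 5%. Input 1 was apart in 7 of them. Its value was 10129 CPM for Cdr1 against 9566 to 9626 in the others, 59.7 for Sulf2 against 47.3 to 47.8, 43.5 for Lhx6 against 36.4 to 37.2, 4.41 for S100a6 against 6.17 to 6.43, 0.282 for Cyp4a12b against 0 to 0.0394 and 0.0626 for Agtr1b against 0. The neuronal cytoskeleton summed to 7457 CPM in input 1, against 6990.0 to 7058 CPM in the others. Input 2 stood apart for Car13 with 3.34 CPM against 2.07 to 2.13 and for Col9a1 with 0.877 against 0.355 to 0.422. Twist1 had 0.0844 CPM in input 3 against 0.219 to 0.237, and Aldh1a2 had 8.04 CPM in input 4 against 11.2 to 11.6. With 3 samples the TRAP fraction was not examined in this way. None of these single values brings the fractions to overlap.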

How the results depend on the processing

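No named gene changed direction. List medians changed sign for the p11 partners and snoRNA hosts in 5 settings each (at most 0.19 and 0.21) and for axon guidance with library size alone (0.01). With TRAP 2 and 3 separate, that of oligodendrocyte precursors was 0.02, but over 6 of the 7 genes. The layer 5 intratelencephalic median changed sign in 3 settings, including the block and TRAP 1 left out. Its lowest value, -0.27 with TRAP 2 and 3 separate, was over 7 of the 8 genes. The number of genes called higher was 3070 to 3426 and lower 3122 to 3729 when single Gh libraries were left out, and those at least 2-fold higher 2059 to 2133 and lower 1081 to 1208. Library size alone gave 4917 higher and 2257 lower with 681 at least 2-fold lower, the only setting to move these counts by over 1.5 times. The causes were not tested. For the difference between Gh and the other groups, 0 genes became 150 without Sh TRAP 2 and 3, 16 with DESeq2, 8 when Gh TRAP 2 and 3 were kept separate and 8 against the fluoxetine groups alone, and genes at an unadjusted p under 0.05 numbered 2536 in place of 1018 without Sh TRAP 2 and 3. Deviations of same-numbered TRAP and input libraries correlated at -0.026 to 0.006 across genes, and those of differently numbered ones at -0.035 to 0.046. This cannot decide whether replicate numbers pair the fractions, since deviations particular to each library also give values near 0. A replicate block gave 3287 higher and 3589 lower, and 0 genes differing between Gh and the other groups. Of 159 named genes, 12 lost their call in at least 1 setting, each in its own direction. At these depths, genes with few counts in either fraction, such as Pou2af1 and Higd1b, have folds of low precision.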
